A study of Mus musculus with 2 samples.

Results

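In all, 35 genes that cells switch on within minutes to hours of a stimulus or of protein damage were followed through the cells of AT3 mammary tumors. They were chosen by name from 32285 measured genes. No measured value entered the rule, but earlier results of these data were known when the genes were chosen. The 24 early-response genes were Fos, Fosb, Jun, Junb, Jund, Egr1, Egr2, Egr3, Atf3, Nr4a1, Nr4a2, Nr4a3, Klf4, Klf6, Hes1, Dusp1, Dusp2, Zfp36, Btg2, Socs3, Ier2, Ier3, Ier5 and Rhob. The 11 heat shock genes were 6 that are known for strong induction by heat (Hspa1a, Hspa1b, Hsph1, Dnajb1, Bag3 and Hspb1) and 5 that most cells also carry at rest (Hspa8, Hsp90aa1, Dnaja1, Hspe1 and Hspd1), called inducible and constitutive below. All 35 were found in both libraries. The question was which cells carry the early-response genes and which the heat shock genes, since both kinds can respond to the handling of tissue.

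Immediate early genes are copied without new protein synthesis. Kinase signaling to bound factors such as SRF and CREB starts them within minutes, many of their products are transcription factors (the AP-1 and EGR families), and others shut the response down again by removing phosphates from kinases or by destroying short-lived mRNAs. Heat shock genes are driven by HSF1, which is released when unfolded proteins draw chaperones away, forms a trimer and binds repeated GAA units. Their products hold, refold or pass on damaged proteins, and enzymatic digestion of solid tissue at body temperature is known to raise both programs.

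Each genotype was 1 library made from a pool of 10 female mice, 6 to 12 weeks old, whose AT3 tumors were taken on day 30. AT3 is a mouse mammary carcinoma line that was placed in the mammary fat pad. Pgd fl/fl mice carry a floxed Pgd gene, which encodes 6-phosphogluconate dehydrogenase, and served as the control. Pgd fl/fl LysM Cre mice carry the same floxed gene and Cre in the Lyz2 locus, which is active in monocytes, macrophages and neutrophils. Tumors were digested and live cells were sorted. The labels name CD45+ cells in 1 sentence and CD11b+ cells in another, although T and B cells made up a large part of both libraries, and both suspensions carried sample oligonucleotides and were loaded together. With 1 library per genotype no test between genotypes was possible, and 95% intervals, all exact, cover counting error only.

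After filtering, 3565 cells of Pgd fl/fl mice remained beside 2798 of Pgd fl/fl LysM Cre mice, with a median of 5554 and 7926 unique molecular identifiers (UMIs, tags that count captured RNA molecules) per cell. The libraries shared 0 barcodes. Cells fell into 20 clusters, built without the 35 genes, and each name used here stands for cells that resemble that type by its markers. The targeted gene was measured at 106 and 29.0 CPM (UMIs of a gene scaled to a fixed total per cell group) in macrophages, where pairs of values give Pgd fl/fl first and Pgd fl/fl LysM Cre second throughout. In T cells Pgd was at 27.1 and 31.0 CPM. Lyz2 was at 3155 and 25.9 CPM in macrophages. In 3 clusters the naming rule failed, and these are called by their first gene. The Cd8b1 and Ccl1 clusters had a marker of another list among their leading genes, and in the H2-M5 cluster 2 markers of its closest list were detected, under the minimum of 3. For both the Cd8b1 and the Ccl1 cluster the closest list was that of T cells. T cell markers summed to 4963 and 4961 CPM in the Cd8b1 cluster and to 6911 and 6348 in the Ccl1 cluster. The group called T cells below leaves both clusters out. The Cd8b1 cluster had 433 and 285 cells, the Ccl1 cluster 147 and 135, and the H2-M5 cluster 116 and 168. Markers of other cell types were present in every group, and not always at low levels. In monocytes the macrophage markers summed to 5381 and 5586 CPM, above the monocyte markers at 2979 and 2217. In the H2-M5 cluster the epithelial markers summed to 1893 and 1516 CPM. T cell markers summed to 605 and 872 CPM in macrophages against 4630.3 and 4519 in T cells, and 231 of 737 and 322 of 753 macrophages held a UMI of Cd3d, Cd3e, Cd3g, Cd79a or Ms4a1. Myeloid cells of this kind, and lymphoid cells with at least 3 UMIs of the complement genes C1qa, C1qb and C1qc, are called mixed cells, and results that they moved are given with and without them.

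The early-response genes were carried most by neutrophils and least by T cells, taken without the Cd8b1 and Ccl1 clusters. The heat shock genes were carried most by B cells and least by neutrophils. These ends held in both libraries. In neutrophils the 24 early-response genes held 2.37% (95% interval 2.30 to 2.45) of all UMIs in Pgd fl/fl, against 2.52% (95% interval 2.44 to 2.59) in Pgd fl/fl LysM Cre. In T cells they held 0.783% (95% interval 0.776 to 0.790) and 0.775% (95% interval 0.767 to 0.784). The 11 heat shock genes held 1.49% (95% interval 1.47 to 1.5) and 1.45% (95% interval 1.38 to 1.51) of UMIs in B cells. Neutrophils stood at the other end with 0.376% (95% interval 0.345 to 0.409) and 0.168% (95% interval 0.149 to 0.188). The cells with the most early-response RNA were thus the cells with the least heat shock RNA.

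Between these ends, heat shock UMIs outnumbered early-response UMIs in the lymphoid groups. The reverse held in myeloid cells, epithelial tumor cells and the H2-M5 cluster. Neither summed share alone split the groups in this way in Pgd fl/fl LysM Cre. There B cells lay above dendritic cells in early-response share, and T cells lay below macrophages in heat shock share. In Pgd fl/fl the early-response intervals of B cells and dendritic cells overlapped. Without mixed cells, B cells were at 1.141% and 1.19% and dendritic cells at 1.145% and 1.12%. With equal weight for each gene (the mean of log2(CPM + 1)), B cells lay below dendritic cells in both libraries. By early-response share, neutrophils were followed in Pgd fl/fl by monocytes (1.54%), the H2-M5 cluster (1.53%), macrophages (1.52%) and epithelial tumor cells (1.47%), and the intervals of the first 3 of these overlapped. In Pgd fl/fl LysM Cre the order below neutrophils was epithelial tumor cells (1.77%), macrophages (1.40%), the H2-M5 cluster (1.40%) and monocytes (1.27%). B cells (1.12% and 1.22%), dendritic cells (DCs, 1.11% and 1.06%) and innate lymphoid or natural killer cells (ILC or NK cells, 1.00% and 1.00%) came next, and the Ccl1 cluster (0.907% and 0.828%) and the Cd8b1 cluster (0.855% and 0.793%) stood just above T cells. The intervals of the Cd8b1 cluster and T cells overlapped in Pgd fl/fl LysM Cre.

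For the heat shock genes, B cells were followed by the Cd8b1 cluster (1.40% and 1.29%), the H2-M5 cluster (1.31% and 1.36%) and ILC or NK cells (1.25% and 1.17%). T cells (1.06% and 0.907%), macrophages (1.06% and 1.00%), DCs (1.01% and 1.02%), the Ccl1 cluster (0.994% and 1.01%) and monocytes (0.973% and 0.973%) lay close together. Epithelial tumor cells were at 0.926% and 0.824%. The intervals of T cells and macrophages overlapped in Pgd fl/fl, as did those of DCs, the Ccl1 cluster and monocytes, and in Pgd fl/fl LysM Cre those of DCs, the Ccl1 cluster and macrophages. The ratio of heat shock to early-response UMIs ran from 1.63 and 1.63 in the Cd8b1 cluster through 0.697 and 0.717 in macrophages to 0.159 and 0.0666 in neutrophils.

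Some of these shares moved with depth or with mixed cells. Neutrophils were shallow (median 2244 and 2113 UMIs), with 58 and 72 cells. When the 12 and 7 mixed cells among them were left out, the heat shock share was 0.147% and 0.159%, and the early-response share was 2.47% and 2.63%. The Pgd fl/fl LysM Cre neutrophils also held 46823 CPM of red cell genes, of which the Pgd fl/fl neutrophils held 0, and the part of these cells in the sums was not tested. With each cell thinned to 2000 UMIs, the epithelial tumor cells had an early-response share of 1.16% and 1.35%. In these cells the thinned early-response count still followed the depth of the cell (Spearman rho 0.61 over 64 and 0.61 over 86 cells). With equal weight for each gene (the mean of log2(CPM + 1)), neutrophils stayed first for the early-response genes and last for the heat shock genes in both libraries, and B cells stayed first for the heat shock genes. In Pgd fl/fl LysM Cre the ends held less firmly for lymphocytes. There T cells were at position 10 of 11 for the early-response genes by the equal-weight mean and at 9 with thinned cells, and B cells, with 35 cells, were at 2 for the heat shock genes with thinned cells.

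**Figure D1:**
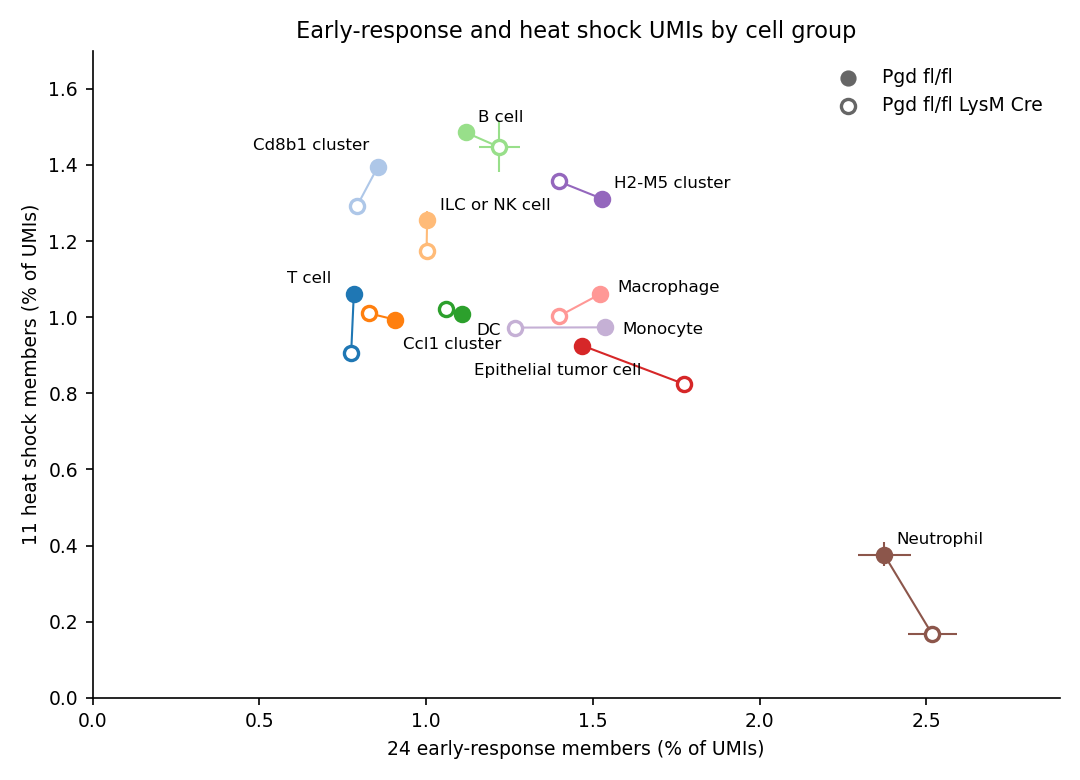
Share of UMIs held by the 24 early-response genes (x axis, %) and by the 11 heat shock genes (y axis, %) in 11 cell groups, filled for Pgd fl/fl, open for Pgd fl/fl LysM Cre, joined by a line, with bars for 95% counting intervals. Neutrophils lie alone at the lower right with 2.37% and 2.52% of UMIs in early-response genes and 0.376% and 0.168% in heat shock genes, and the Cd8b1 cluster and B cells lie at the top.

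Early-response genes were described by role, first the transcription factors of AP-1 and EGR. Fos, the partner that makes AP-1 inducible, was at 1839 and 1765 CPM in epithelial tumor cells, 1657 and 1349 in macrophages and 1591 and 1279.5 in monocytes. In T cells it was at 512 and 486 CPM and in the Ccl1 cluster at 514 and 402. Every myeloid group thus lay above every lymphoid group for Fos, DCs (1057 and 925) and B cells (863 and 737) being the closest neighbours. Fosb, its close relative, was at 877 and 638 CPM in macrophages and 969 and 1083 in the H2-M5 cluster, against 152 and 205 in T cells. Jun, which pairs with Fos proteins, varied less, from 712 and 671 CPM in the Ccl1 cluster to 1975 and 2213 in epithelial tumor cells, with B cells at 1885 and 1247. Jund, a Jun relative that many resting cells carry, was highest in B cells (1952 and 2720.4 CPM). Junb was highest in neutrophils (3275 and 4159 CPM) and lay between 819.9 and 1627 CPM in the other Pgd fl/fl groups.

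Atf3, an AP-1 related factor of stress responses, lay higher in every myeloid group than in any lymphoid group. It was at 1949.8 and 1976 CPM in the H2-M5 cluster, 1554 and 1297 in macrophages and 1500.3 and 1215 in monocytes, but at 58.1 and 145 in T cells and 78.2 and 79.6 in the Cd8b1 cluster. At 2000 UMIs per cell, 69.9% and 66.3% of macrophages and 7.10% and 8.86% of T cells held an Atf3 UMI (86.0% and 83.0%, and 14.8% and 18.3%, without thinning). Egr1, a zinc finger factor that serum and growth factors induce, was at 1201 and 1154 CPM in neutrophils and 854 and 954 in epithelial tumor cells, and at 104 and 123 in T cells. Egr2 stayed at or below 61.4 CPM in every group. Egr3 was highest in the H2-M5 cluster in Pgd fl/fl (95.8 CPM) and in B cells in Pgd fl/fl LysM Cre (102 CPM), and lowest in T cells (7.58 and 4.52 CPM).

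The nuclear receptors Nr4a1, Nr4a2 and Nr4a3, which act without a known natural ligand and are read in T cells as signs of receptor signaling, did not share a pattern. Nr4a1 was highest in neutrophils in Pgd fl/fl (625 CPM, 429 in Pgd fl/fl LysM Cre) and in B cells in Pgd fl/fl LysM Cre (426 and 549). Nr4a2 was highest in the Ccl1 cluster (232 and 240.5 CPM) and low in macrophages (38.7 and 59.6) and B cells (25 and 23.5). Nr4a3 was highest in the H2-M5 cluster (306 and 380.1 CPM) and DCs (283 and 342) and low in B cells (27.2 and 15.7). Klf4, a zinc finger factor of monocyte and epithelial differentiation, was at 492 and 373 CPM in monocytes, 290.3 and 534 in epithelial tumor cells and 36.2 and 56.9 in T cells. Klf6 had a narrow range, between 606 and 1059 CPM in Pgd fl/fl. Hes1, a repressor downstream of Notch, was held by epithelial tumor cells (375 and 586 CPM) and macrophages (131 and 179) and lowest in the Cd8b1 cluster (4.79 and 1.72 CPM, 13 and 3 UMIs).

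The sum of the remaining 9 genes set neutrophils apart. Some of them limit the response, such as Dusp1, Zfp36 and Socs3, and others, such as Ier3 and Rhob, have other roles. The 9 genes summed to 1.26% and 1.24% of UMIs in neutrophils, against 0.535% and 0.423% in monocytes and 0.231% and 0.214% in T cells. Dusp1, a phosphatase that inactivates MAP kinases, was at 2808 and 3144 CPM in neutrophils and 1032 and 1032 in macrophages, and at 504 and 539 in T cells. Zfp36, which marks AU-rich cytokine mRNAs for decay, was at 1908 and 1815 CPM in neutrophils and 218 and 268 in the Ccl1 cluster. Btg2, an antiproliferative gene that also speeds mRNA decay, was at 1922 and 2291 CPM in neutrophils and 444 and 400.1 in T cells. Socs3, the inhibitor of JAK and STAT3 signaling, was at 474 and 435 CPM in neutrophils, 380.2 and 245 in macrophages and 44.8 and 61.0 in DCs. Ier3, a gene linked to survival of stimulated cells, ranged widely. It was at 2588 and 2477 CPM in neutrophils and 379 and 397 in epithelial tumor cells, but at 4.82 CPM (11 UMIs in 567 cells) in Pgd fl/fl B cells and 0 UMIs in the 35 Pgd fl/fl LysM Cre B cells, with an upper bound of 28.9 CPM. Dusp2, a phosphatase of activated lymphocytes and myeloid cells, went the other way among the rest, with 582 and 641 CPM in the Cd8b1 cluster against 195 and 184 in macrophages, beside 872 and 383 in neutrophils. Ier2 was at 652 and 632 and Ier5 at 954 and 847 CPM in neutrophils, against 182 and 168 in DCs and 221 and 265 in epithelial tumor cells. Rhob, an endosomal GTPase, was highest in macrophages (586 and 662 CPM). Of the 24 early-response genes, 11 and 8 had their highest level in neutrophils, 3 and 8 in epithelial tumor cells, and 0 and 0 in T cells, which had the lowest level of 8 and 3. The shares of all genes that were highest or lowest in these groups are not given.

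**Figure D2:**
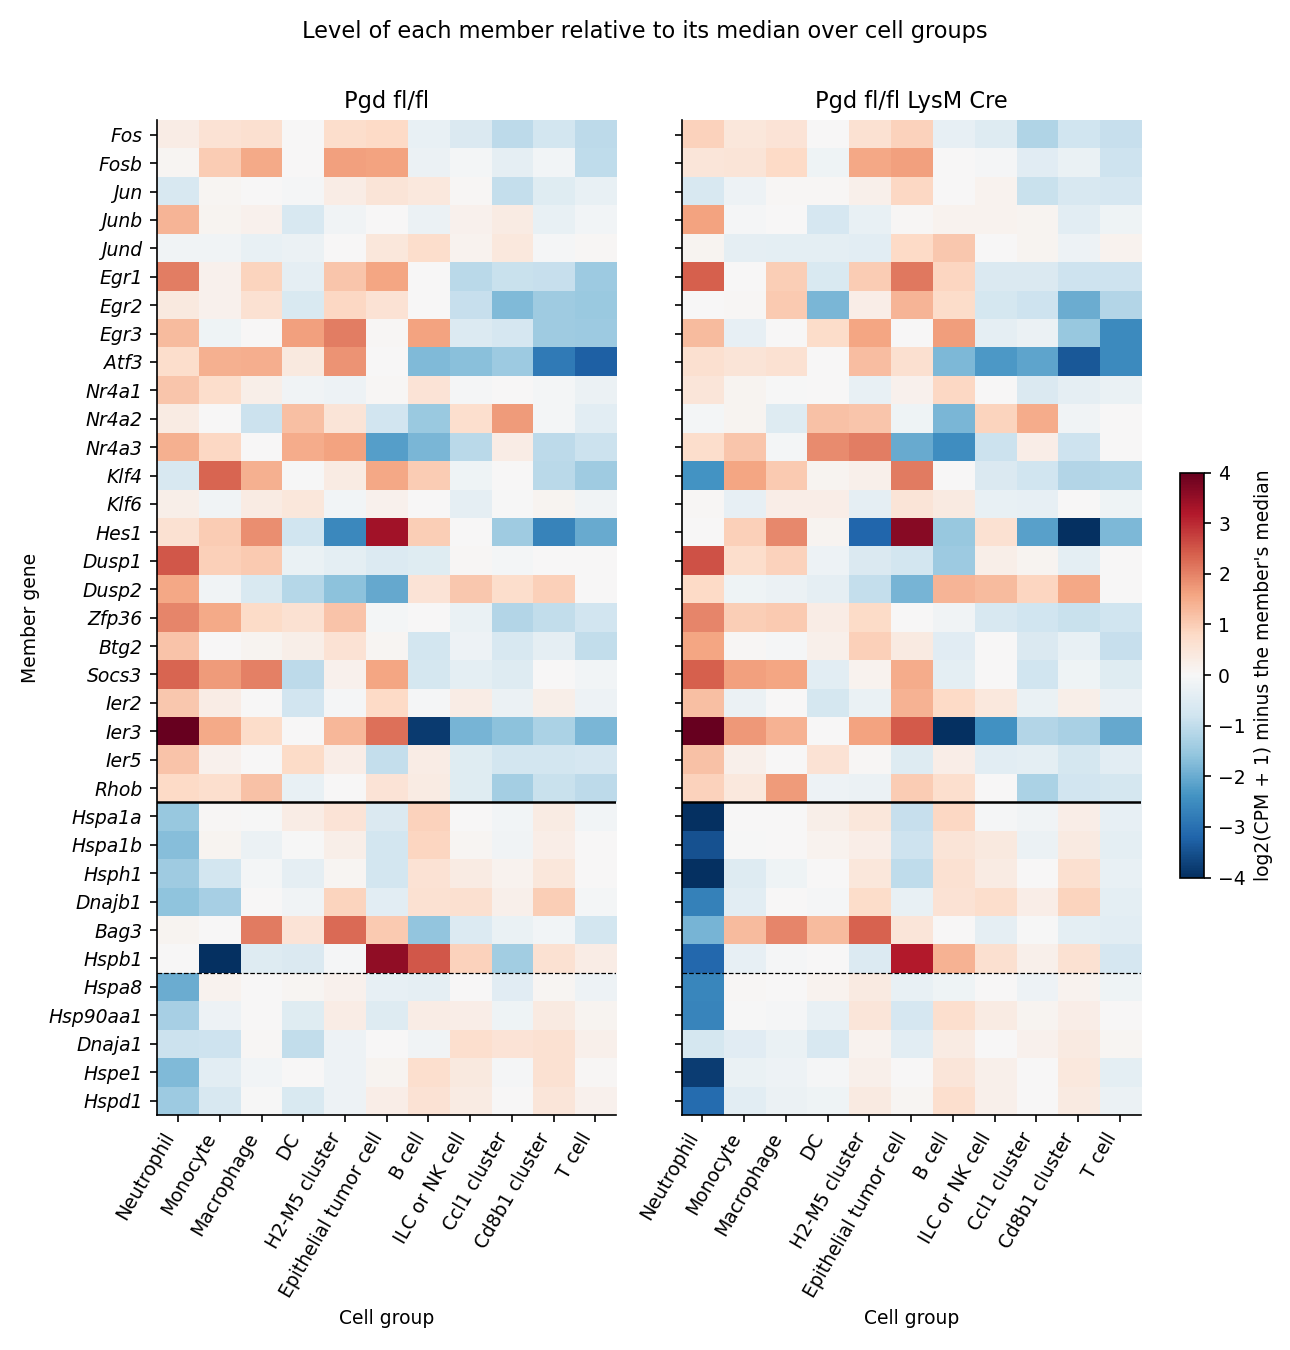
Level of each gene (rows) in each cell group (columns) as log2(CPM + 1) minus that gene's median over the 11 cell groups, 1 panel per genotype, with colors clipped at 4 in either direction. The solid line divides the 24 early-response from the 11 heat shock genes and the dashed line the 6 inducible from the 5 constitutive ones. The neutrophil column is mostly red above the solid line and blue below it in both panels.

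HSF1 reads repeated GAA units, and the promoters of the 4 inducible genes in which such units were found are printed to show them. Of the 35 genes, 29 had a promoter in the RefSeq table of build GRCm38.p6 (mm10, the build of the counts), taken as the 250 bases before the start. Capitals mark pairs of inverted GAA units, written GAANNTTC or TTCNNGAA. Each of these is its own reverse complement, and in runs of 3 units the 2 forms overlap. Windows on the minus strand are printed in the direction of transcription. Hspa1a lies at chr17:34972157-34972406 (minus strand), Hspa1b at chr17:34959239-34959488 (minus), Hspb1 at chr5:135887669-135887918 (plus) and Hsph1 at chr5:149636337-149636586 (minus).
Hspa1a: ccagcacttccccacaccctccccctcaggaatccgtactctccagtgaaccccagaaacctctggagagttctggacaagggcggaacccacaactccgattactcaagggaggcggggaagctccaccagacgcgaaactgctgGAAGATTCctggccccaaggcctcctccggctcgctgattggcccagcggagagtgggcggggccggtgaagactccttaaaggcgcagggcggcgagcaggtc
Hspa1b: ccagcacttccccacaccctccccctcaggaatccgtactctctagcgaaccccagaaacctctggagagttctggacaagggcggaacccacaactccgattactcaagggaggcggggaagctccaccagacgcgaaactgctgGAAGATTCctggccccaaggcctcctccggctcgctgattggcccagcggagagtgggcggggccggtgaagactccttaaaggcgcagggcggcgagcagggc
Hspb1: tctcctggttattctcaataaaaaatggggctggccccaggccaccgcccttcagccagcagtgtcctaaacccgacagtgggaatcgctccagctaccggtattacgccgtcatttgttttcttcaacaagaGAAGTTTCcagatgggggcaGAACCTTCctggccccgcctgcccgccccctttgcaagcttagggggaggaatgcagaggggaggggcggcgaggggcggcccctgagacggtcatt
Hsph1: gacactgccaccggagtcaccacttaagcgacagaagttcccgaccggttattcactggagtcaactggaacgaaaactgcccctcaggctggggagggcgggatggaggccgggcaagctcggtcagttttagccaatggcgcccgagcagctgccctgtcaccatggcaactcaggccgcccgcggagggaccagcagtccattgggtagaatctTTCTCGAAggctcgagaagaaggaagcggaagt

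The Hspa1a and Hspa1b windows had 247 of 250 bases in common (98.8%), and the differences were C44T, T47C and T249G, counted from 1 at the 5′ end with the Hspa1a base first. The genes lie 10120 bases apart, and the counting of such near-identical copies can split reads between them, so their separate values are uncertain and their sum is safer. The ratio of Hspa1a to Hspa1b UMIs lay between 1.46 and 1.99 over the 11 cell groups in Pgd fl/fl, and between 1.00 and 2.05 in Pgd fl/fl LysM Cre. Such a pair of units was found in 4 of 6 inducible genes (those printed), in 3 of 3 constitutive genes with a promoter (Dnaja1, Hspd1 and Hspe1) and in 2 of 20 early-response genes (Egr2 and Jun), against 14.5% of 27025 genes with a promoter. Runs of 3 alternating units were found in the window that Hspd1 and Hspe1 share (the genes point away from each other and overlap by 96 bases), and in 0.514% of all genes. That stretch, at chr1:55088053-55088082 on the plus strand, is printed with 2 overlapping runs in capitals.
Hspe1: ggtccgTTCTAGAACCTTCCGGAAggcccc

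Other elements were searched in the early-response genes. The cyclic AMP response element TGACGTCA, read by CREB and ATF proteins, was found in 2 of 20 (Btg2 and Dusp1, against 1.77% of all genes), and the CArG box that SRF reads in 2 of 20 (Egr2 and Zfp36, against 1.62%). The CCAAT box (CCAAT or ATTGG) was found in 8 of 20, against 37.5%, the TATA box (TATAAA) in 1 of 20, against 8.94%, and the AP-1 element TGACTCA or TGAGTCA in 0 of 20, against 5.16%. The 3 windows below belong to genes with high neutrophil levels, with the element in capitals. Dusp1 lies at chr17:26508473-26508722, Btg2 at chr1:134079156-134079405 and Zfp36 at chr7:28379229-28379478, all on the minus strand.
Dusp1: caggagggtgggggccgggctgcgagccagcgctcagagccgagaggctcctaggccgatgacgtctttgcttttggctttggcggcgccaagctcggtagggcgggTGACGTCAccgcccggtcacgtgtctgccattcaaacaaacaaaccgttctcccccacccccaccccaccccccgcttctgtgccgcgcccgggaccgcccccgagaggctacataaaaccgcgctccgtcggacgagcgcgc
Btg2: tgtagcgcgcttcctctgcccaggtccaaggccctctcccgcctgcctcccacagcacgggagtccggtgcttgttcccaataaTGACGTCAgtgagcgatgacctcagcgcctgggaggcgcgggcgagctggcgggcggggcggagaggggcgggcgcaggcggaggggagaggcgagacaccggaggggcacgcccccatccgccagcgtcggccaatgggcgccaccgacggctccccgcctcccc
Zfp36: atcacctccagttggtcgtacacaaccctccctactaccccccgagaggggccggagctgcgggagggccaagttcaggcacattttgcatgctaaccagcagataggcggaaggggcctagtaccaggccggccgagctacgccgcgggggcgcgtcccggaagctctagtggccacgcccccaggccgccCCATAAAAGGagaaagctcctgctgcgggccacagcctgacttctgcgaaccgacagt
A match describes letters in these windows only, and elements farther away were not searched.

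By summed UMIs of the inducible heat shock genes, the order of cell groups was led by B cells in both libraries. With equal weight for each gene, B cells were at position 2 in Pgd fl/fl, behind the H2-M5 cluster, and first in Pgd fl/fl LysM Cre. Hspa1a and Hspa1b, which encode the inducible HSP70, were at 3647 and 3073 and at 2216 and 1497 CPM in B cells. In macrophages Hspa1a was at 1888 and 1713 CPM, in T cells at 1767 and 1367 and in neutrophils at 673 and 92.8. Outside neutrophils and epithelial tumor cells, no group had less than 1367 CPM. Hsph1, the HSP110 that reloads HSP70, was at 519 and 463 CPM in B cells, 482 and 481 in the Cd8b1 cluster and 212 and 213 in monocytes. Dnajb1, the HSP40 that hands substrates to HSP70, was highest in the Cd8b1 cluster (1154 and 923 CPM) and the H2-M5 cluster (1088 and 829), and was at 234 and 375 in monocytes. Bag3, a cofactor that links HSP70 to autophagy, was at 113 and 94.7 CPM in macrophages and 126 and 124 in the H2-M5 cluster, against 15.2 and 17.4 in T cells. Its lowest level in Pgd fl/fl was that of B cells (7.89 CPM). Hspb1, the small heat shock protein HSP27, was held by epithelial tumor cells (1056 and 1010.4 CPM) and, at lower levels, by B cells (502 and 290.1).

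The constitutive genes were flatter outside neutrophils. Hspa8, the HSC70 of resting cells, was between 1909.7 and 2952 CPM in the other 10 Pgd fl/fl groups and at 666 and 412 in neutrophils. A Hspa8 UMI was found in 94.3% and 95.8% of macrophages and 50% and 47.7% of neutrophils at 2000 UMIs. Hsp90aa1, the inducible form of cytosolic HSP90, ran from 913 and 365 CPM in neutrophils to 2836 and 3614 in B cells. Dnaja1, another HSP40, was at 1079.8 and 1077 CPM in the Cd8b1 cluster and 391 and 516 in neutrophils, the 1 heat shock gene with a Pgd fl/fl LysM Cre neutrophil level close to that of other myeloid cells (609 in monocytes). Hspe1 and Hspd1, the mitochondrial HSP10 and HSP60 that form 1 folding chamber, were at 1138 and 1035 and at 423 and 478 CPM in B cells and at 206 and 52.2 and at 103 and 34.8 in neutrophils. In neutrophils 8 and 11 of the 11 heat shock genes had their lowest level, and 5 and 5 had their highest in B cells. The shares of all genes lowest in neutrophils or highest in B cells are not given, so these counts cannot be set against other genes. Neutrophil markers alone summed to 65136 and 72592 CPM in the shallow neutrophils. By sum, the inducible genes held 0.778% and 0.610% of UMIs in B cells, 0.401% and 0.372% in macrophages and 0.148% and 0.0296% in neutrophils, and the constitutive genes 0.708% and 0.837%, 0.660% and 0.630% and 0.228% and 0.138%.

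Clusters within a type also differed. Among macrophages the early-response share was 1.65% and 1.47% in the main Vcam1 and Mmp13 cluster, 0.95% and 1.18% in the cycling cluster and 0.522% and 0.511% in the cluster led by the immunoglobulin gene Ighm and the chemokine gene Ccl8. It was 2.65% and 1.99% in the small cluster led by Retnla and Lyz1 (15 and 50 cells). The Ccl8 macrophages therefore lay below T cells as a whole, and the Retnla macrophages above every other macrophage cluster. Their heat shock shares differed less, at 1.12% and 1.03%, 0.663% and 0.948%, 0.920% and 0.711% and 0.879% and 1.02% in the same order. In the 94 and 104 cells of the Ccl8 cluster the heat shock share was thus above the early-response share.

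Among T cells the heat shock share varied by cluster. It was lowest in the Foxp3 cluster, whose leading genes are those of regulatory T cells (0.791% and 0.798%), and in the cycling cluster (0.887% and 0.839%). It was 1.23% and 1.58% in the cluster led by Lef1, Dapl1 and Tcf7, genes of naive and memory-like T cells, 1.51% and 0.966% in the cluster led by Hlf and Krt83, and 1.55% and 1.67% in the cluster led by the interferon genes Ifit3 and Ifit1. For the inducible genes alone the Foxp3 cluster held 0.241% and 0.232% of UMIs and the Lef1 cluster 0.566% and 0.836%. The early-response share ran from 0.531% and 0.610% in the cycling cluster to 1.15% and 1.11% in the Hlf cluster. The Lef1 cluster had 452 cells in Pgd fl/fl, against 42 in Pgd fl/fl LysM Cre.

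Within a type, the inducible heat shock UMIs sat in part of the cells. With each cell thinned to 2000 UMIs, 42.9% and 40.9% of macrophages held at most 1 UMI of the 6 inducible genes, whereas 30% and 27.1% held 10 or more. The 10% of macrophages with the most such UMIs held 43.9% and 43.3% of them. B cells of Pgd fl/fl had 28.5% at 0 or 1 and 54.7% at 10 or more of 550 cells. The 33 Pgd fl/fl LysM Cre B cells had 57.6% and 27.3%. In T cells 39.1% and 57.0% held at most 1, and by cluster this was 64.0% and 66.7% in the Foxp3 cluster and 17.9% and 27.0% in the Lef1 cluster. Of neutrophils 77.8% and 90.9% held at most 1.

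In macrophages and T cells, early-response UMIs were spread more evenly than those of the inducible heat shock genes. The median macrophage held 25 and 23.0 early-response and 12 and 13 heat shock UMIs per 2000, and the median neutrophil 43.5 and 43.0 and 2.50 and 2. At the median, T cells held 16.0 and 14 early-response and 14.5 and 9 heat shock UMIs, and B cells 23.0 and 20 and 25 and 10.0. The 10% of cells with the most held 29.2% and 27.7% of early-response UMIs in macrophages and 25.1% and 26% in T cells, below the values for inducible heat shock UMIs of 43.9% and 43.3% and 43.6% and 58.7%. Mitochondrial share followed the macrophage early-response count weakly (rho -0.35 and -0.20 over 714 and 716 cells), and its part in the spread was not tested.

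**Figure D3:**
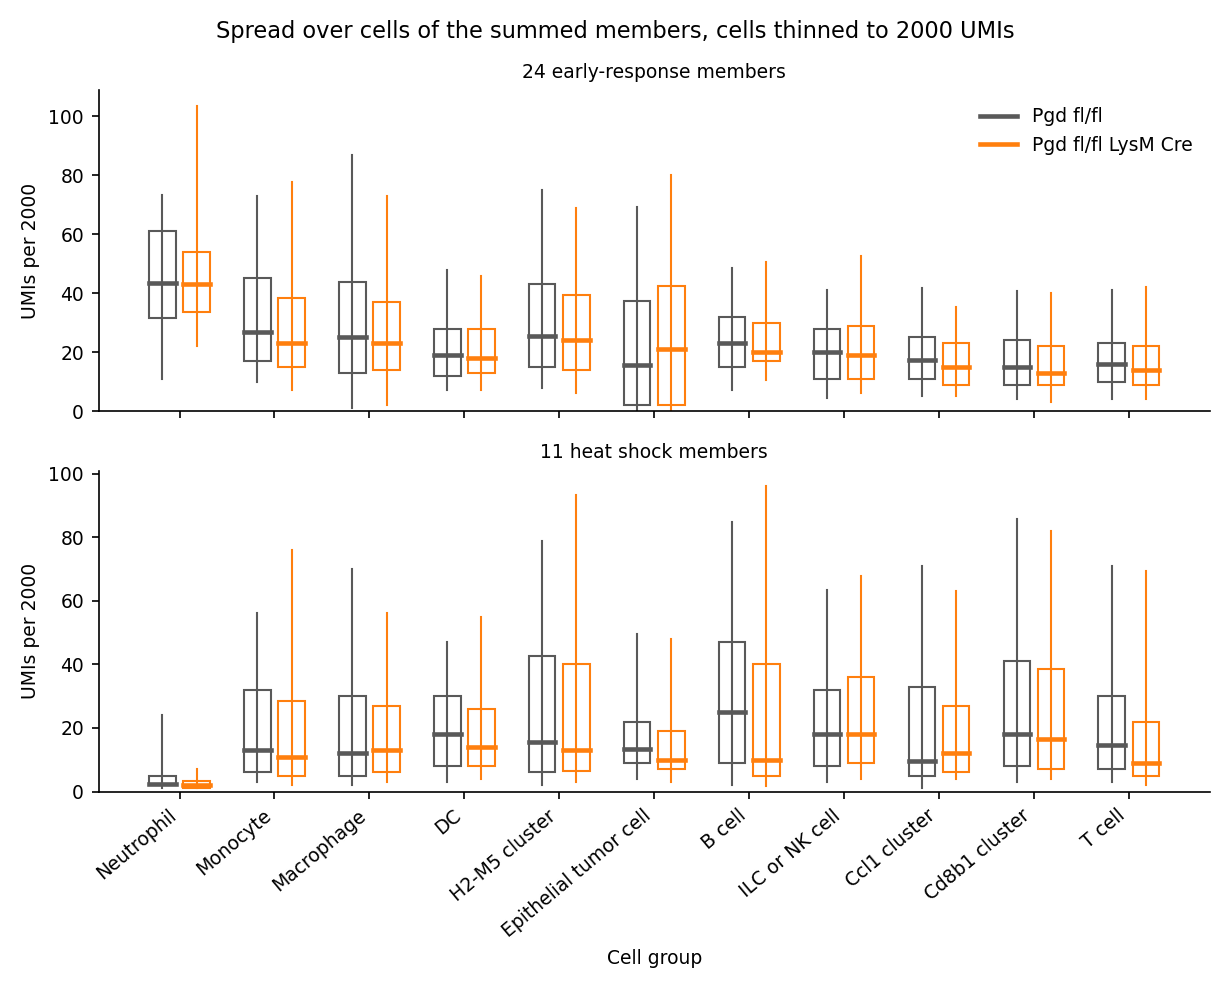
Summed UMIs per cell of the 24 early-response (upper panel) and the 11 heat shock genes (lower panel) after thinning each cell to 2000 UMIs, by cell group and genotype. Boxes span the quartiles with a thick line at the median, and whiskers run from the 5th to the 95th percentile of cells. Neutrophils have the highest early-response medians (43.5 and 43.0) and the lowest heat shock medians (2.50 and 2).

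In most groups the same cells were high in both sums. Over thinned cells, the Spearman correlation of the early-response and the heat shock count was 0.65 and 0.54 in macrophages (n = 714 and 716), 0.66 and 0.54 in monocytes (125 and 323), 0.68 and 0.63 in the H2-M5 cluster (116 and 167) and 0.62 and 0.62 in the Cd8b1 cluster (425 and 278). It was 0.47 and 0.40 in T cells (1042 and 598) and 0.43 and 0.18 in B cells (550 and 33), and -0.06 and 0.03 in neutrophils (36 and 44), whose median heat shock counts were 2.50 and 2. The points share a library, a depth and the fixed total of 2000 UMIs, so these values are descriptions only. Depth before thinning followed the heat shock count with rho of 0.08 and 0.12 in macrophages, and the early-response count with -0.02 and 0.09. The early-response count fell with depth in T cells (-0.37 and -0.28), B cells (-0.30 and -0.26) and monocytes (-0.22 and -0.37). It rose with depth in epithelial tumor cells (0.61 and 0.61). The part of depth in the correlations was not tested. The inducible and the constitutive sums varied together more closely, with rho of 0.79 and 0.76 in macrophages, 0.83 and 0.79 in the H2-M5 cluster, 0.68 and 0.61 in T cells and 0.73 and 0.74 in B cells.

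Single genes did not all take part. In macrophages Fos (0.68 and 0.63) and Jun (0.65 and 0.57) followed the sum of the other early-response genes most closely, with Atf3 (0.61 and 0.54) below them. Jun was also the early-response gene closest to the heat shock sum, with rho of 0.62 and 0.52 in macrophages, 0.58 and 0.53 in monocytes and 0.51 and 0.43 in T cells, where Fos had 0.27 and 0.21 and Junb 0.11 and 0.12. Nr4a2 (0.00 and 0.07), Nr4a3 (0.06 and 0.06), Egr3 (0.03 and 0.13) and Dusp2 (0.18 and 0.12) had low values with the macrophage early-response sum. Among the heat shock genes, Hspa1a (0.79 and 0.76 in macrophages, 0.67 and 0.62 in T cells) and its near-copy Hspa1b (0.74 and 0.73, and 0.71 and 0.61) followed the sum of the others closely, with Hsp90aa1 at 0.73 and 0.67 and 0.65 and 0.64. Hspb1 had 0.14 and 0.24 in macrophages and 0.20 and 0.23 in T cells.

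**Figure D4:**
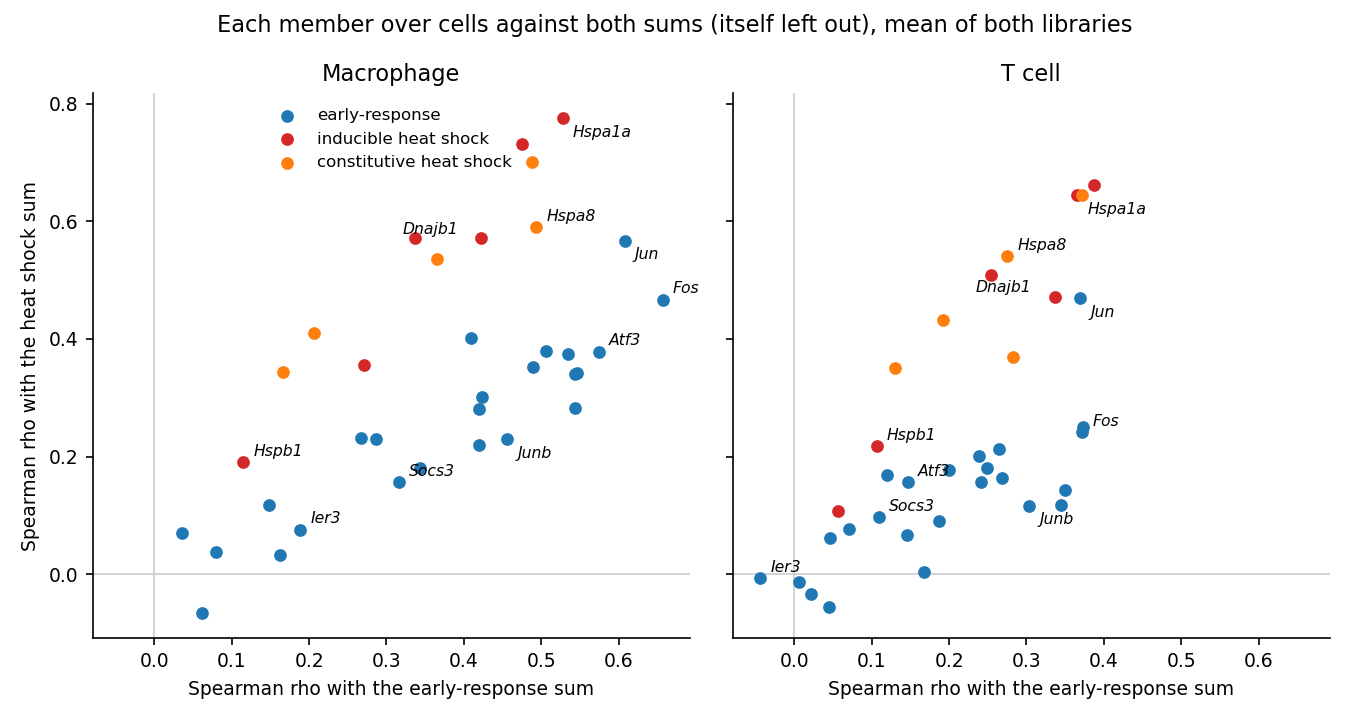
Spearman correlation over thinned cells of each gene with the summed early-response genes (x axis) and the summed heat shock genes (y axis), the gene itself left out, as the mean of both libraries, in macrophages and T cells. Each point is 1 gene. Hspa1a and Hspa1b lie at the top, and Jun lies highest among the early-response genes in both panels.

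Other genes that followed the sums were sought among genes found in at least 10% of cells (2220 in macrophages, 2063 in T cells), by the mean rho of both libraries. In macrophages the 10 closest to the early-response sum included Rgs1 (0.47), Ccl4 (0.42), Rgs2, Klf2, Zfand5, Ccl3, H3f3b and Mcl1 (0.35). Rgs1 and Rgs2 dampen G protein signaling, and Ccl3 and Ccl4 are chemokines. The 10 closest to the heat shock sum included Hsp90ab1 (0.52), the other cytosolic HSP90 gene, Klf2, Ubb, Hmox1 (0.33), which encodes heme oxygenase, Rgs2, Hspa5, Zfp36l2, Ccl4 and Ppp1r15a (0.22). In T cells the 10 closest to the early-response sum included Klf2 (0.38), Ppp1r15a, Malat1, Hsp90ab1, Ubb, Pnrc1, Ddx5, Cd69 and Nfkbia (0.19). Those of the T cell heat shock sum included Hsp90ab1 (0.59), Klf2 (0.32) and Ubb (0.24), and the ribosomal protein genes Rps29, Rpl35a, Rps24, Rps18, Rps28 and Rps4x, none above 0.22. Of the genes named, Hsp90ab1, Klf2 and Ubb were thus on the heat shock lists of both cell types, and Klf2 was also on both early-response lists.

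Wider lists of related genes showed how far the split between cell groups extended. A list of 39 further early-response genes held 2.37% and 2.52% of UMIs in neutrophils and 0.982% and 0.967% in macrophages, and 0.816% and 0.842% in T cells, so that the gap between macrophages and T cells was smaller than for the 24 genes. A list of 15 NF-kB targets and cytokines held 5.60% and 4.85% in neutrophils, 0.892% and 0.942% in macrophages and 0.130% and 0.133% in B cells. Cytosolic chaperones and cofactors outside the 11 (37 genes) had a narrower range, from 1.14% and 1.22% in epithelial tumor cells to 0.695% and 0.668% in neutrophils, with B cells at 0.896% and 0.946%. The B cell lead in the 11 heat shock genes was therefore not seen in the wider chaperone list. Chaperones of the endoplasmic reticulum (16 genes) were highest in macrophages (0.499% and 0.475%), monocytes (0.442% and 0.449%) and the H2-M5 cluster (0.433% and 0.479%), and at 0.185% and 0.147% in B cells.

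In the 8 compared groups, with at least 100 cells in each library, the sums differed little between genotypes against the differences between cell groups. Ratios are on the log2 scale and above 0 where Pgd fl/fl LysM Cre was higher. For the early-response sum the ratio was -0.12 (-0.13 to -0.11) in macrophages, -0.28 (-0.30 to -0.26) in monocytes, -0.06 (-0.09 to -0.04) in DCs and -0.01 (-0.04 to 0.01) in T cells, with 95% counting intervals in parentheses. For the heat shock sum the ratio was -0.08 (-0.09 to -0.07), 0.00 (-0.03 to 0.03), 0.02 (-0.01 to 0.05) and -0.23 (-0.25 to -0.21) in the same order. In the H2-M5 cluster the ratios were -0.13 (-0.15 to -0.10) and 0.05 (0.02 to 0.07), in ILC or NK cells 0.00 (-0.05 to 0.04) and -0.09 (-0.13 to -0.06), in the Ccl1 cluster -0.13 (-0.17 to -0.09) and 0.02 (-0.02 to 0.06), and in the Cd8b1 cluster -0.11 (-0.14 to -0.08) and -0.11 (-0.13 to -0.09). The early-response ratio was below 0 in 8 of 8 compared groups, but its sign turned under 1 or more other settings in DCs, T cells, ILC or NK cells and the Ccl1 cluster. Epithelial tumor cells, B cells and neutrophils, under 100 cells in a library, were not among these. Their early-response ratios lay above 0, at 0.27 (0.24 to 0.30), 0.12 (0.05 to 0.20) and 0.08 (0.02 to 0.15). Their heat shock ratios were -0.17 (-0.21 to -0.13), -0.04 (-0.11 to 0.03) and -1.17 (-1.38 to -0.96). Without mixed cells, the neutrophil heat shock shares were 0.147% and 0.159%. These intervals say nothing of the spread between mice or libraries.

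Among the 8 compared groups, the heat shock ratio of T cells was the farthest from 0. With the 5 T cell clusters held at fixed weights, a setting added after the data were seen, it was 0.02 instead of -0.23, and the early-response ratio 0.12 instead of -0.01. The Lef1 cluster, with a high heat shock share, made up 452 of 1093 T cells in the control and 42 of 634 in Pgd fl/fl LysM Cre. The part of this difference in the ratio was not tested further, and with scaling to a total without mitochondrial, ribosomal protein and the 35 genes the ratio was -0.37. Of 10 cycling genes tested, 8 were also higher past 1.5-fold in Pgd fl/fl LysM Cre T cells. The monocyte early-response ratio kept its sign under all 8 alternative settings, between -0.32 and -0.16, and the macrophage ratio under all 9, between -0.16 and -0.08.

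Single genes were counted as higher or lower when they passed a fold of 1.5 with at least 50 UMIs over both libraries. In macrophages 1 of 24 early-response genes (Nr4a2) and 1 of 11 heat shock genes (Hspb1) were higher, beside 5.29% of all 10387 genes tested, and 1 (Socs3) was lower, beside 2.91%. These shares are close to those of all genes, and with cells thinned to 2000 UMIs 0 genes were higher and 0 lower. Socs3 was at 380.2 and 245 CPM, a log2 ratio of -0.63 (-0.71 to -0.56), and was found in 553 and 516 macrophages. Nr4a2 had a ratio of 0.62 (0.43 to 0.82) but 0.16 without mixed cells, and Hspb1 one of 0.78 (0.63 to 0.93), with 45.9% and 36.2% of its UMIs in 5 cells of each library. By cluster, the ratio of Socs3 was -0.65 (-0.73 to -0.57) in the Vcam1 cluster, -0.44 (-0.70 to -0.17) in the cycling cluster and -0.71 (-1.17 to -0.23) in the Retnla cluster, and in the Ccl8 cluster it was -0.29 (-1.12 to 0.53). The median over the 24 early-response genes was -0.09 and over the 11 heat shock genes -0.07, against 0.07 over all genes tested.

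In monocytes 4 of 11 heat shock genes (Dnaja1, Hspb1, Bag3 and Dnajb1) and 0 of 24 early-response genes were higher, beside 7.24% of 7263 genes. Lower were 3 of 24 early-response genes (Zfp36, Ier2 and Rhob) and 0 of 11 heat shock genes, beside 3.95%. Dnajb1 was at 234 and 375 CPM, a ratio of 0.68 (0.50 to 0.86), and Bag3 at 25.7 and 57.3, a ratio of 1.16 (0.63 to 1.72). Dnaja1 had a ratio of 0.60 (0.47 to 0.74), and 0.26 without mixed cells. The HSP70 genes did not go with these 3, since Hspa1a had -0.17 (-0.23 to -0.10) and Hspa1b -0.37 (-0.45 to -0.29). Hspb1 had 5 and 343 UMIs, a ratio of 4.53 (3.29 to 6.16), in 4 and 32 cells, and 5 Pgd fl/fl LysM Cre monocytes held 61.2% of its UMIs. In those 5 cells the other inducible genes held 0.798% of UMIs, against 0.340% over all monocytes of that library, and 2 of the 5 had an epithelial marker UMI, as did 36.6% of all monocytes of that library. Zfp36 was at 1409 and 925 CPM, a ratio of -0.61 (-0.69 to -0.53), but -0.09 with finer clusters. There the cells named monocytes numbered 26 and 51 and were under the limit of 100. A finer cluster led by Ly6i and Plac8, which also led the monocyte cluster used here, held 105 and 279 cells. It stayed unnamed, and its closest list was that of macrophages. Ier2 had -0.71 (-0.87 to -0.55) and Rhob -0.62 (-0.77 to -0.47), and each stayed below 0 under the 8 alternative settings. All 3 lower genes fell short of the fold with the 35 genes kept in the clustering (-0.51, -0.55 and -0.55 in the order named), as the mean over cells (-0.39, -0.53 and -0.47) and with thinned cells (-0.49, -0.28 and -0.56). The ratios of Dnajb1 and Bag3 stayed past the fold under all 8, and that of Hspb1 under the 7 that gave a value, but with finer clusters 1 of the 35 genes was counted as higher. The medians were -0.24 for early-response, 0.22 for heat shock and 0.02 for all genes.

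In T cells 5 of 24 early-response genes (Atf3, Nr4a2, Nr4a3, Klf4 and Hes1) and 0 of 11 heat shock genes were higher, beside 9.22% of 9054 genes. Lower were 1 of 24 (Egr3) and 2 of 11 (Hspb1 and Hspa1b), beside 3.8%. Atf3 was at 58.1 and 145 CPM, a ratio of 1.32 (1.12 to 1.51), and 5 Pgd fl/fl LysM Cre cells held 50% of its UMIs. As the mean over cells the ratio was 0.46, and with cells thinned to 2000 UMIs 0.57, both under the fold. Its excess lay in the cycling cluster, from 103 and 457 UMIs at a ratio of 1.88 (1.57 to 2.2), while in the Foxp3 cluster the ratio was -0.02 (-0.54 to 0.51). Nr4a3 was spread over more cells (217 and 185) with a ratio of 0.74 (0.52 to 0.96), and in the cycling cluster had 1.18 (0.70 to 1.68). Nr4a2 had 0.71 (0.49 to 0.94) and Klf4 0.65 (0.38 to 0.93), and Hes1, found in 20 and 24 cells, had 0.64 (0.05 to 1.24), or -0.05 thinned. With thinned cells 0 genes were higher in T cells, and scaled to a total without mitochondrial, ribosomal protein and the 35 genes, 2 were higher and 8 lower. The shares of all genes past the fold under these settings are not given, so these counts cannot be set against other genes. For Egr3, found in 33 and 16 cells, the interval of the ratio of -0.74 (-1.60 to 0.06) included 0. Hspa1b was at 1214 and 785 CPM, a ratio of -0.63 (-0.69 to -0.57) over the type, but 0.31 (0.15 to 0.46) in the Lef1 cluster, 0.07 (-0.06 to 0.19) in the Foxp3 cluster and -1.14 (-1.32 to -0.95) in the Hlf cluster. Hspa1a, which did not pass the fold, had -0.37 (-0.42 to -0.32). The medians were 0.02, -0.37 and 0.12.

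In DCs 1 of 23 early-response genes (Hes1) and 2 of 11 heat shock genes (Hspb1 and Bag3) were higher, beside 8.72% of 6091 genes, and 1 (Egr1) was lower, beside 2.23%. Egr1 was at 223 and 143 CPM, a ratio of -0.64 (-0.87 to -0.41), with -0.97 (-1.27 to -0.67) in the Xcr1 cluster and -0.20 (-0.56 to 0.17) in the Fscn1 cluster. Hes1 UMIs in Pgd fl/fl LysM Cre came from the Xcr1 cluster alone, with 114 of 114. In the H2-M5 cluster 1 of 23 (Nr4a2) and 1 of 11 (Hspd1) were higher, beside 4.26% of 6737 genes, and 2 of 23 (Egr2 and Rhob) were lower, beside 4.04%. There Nr4a2 had 0.87 (0.60 to 1.14), Hspd1 0.66 (0.49 to 0.83), Egr2 -1.02 (-1.49 to -0.55) and Rhob -0.59 (-0.79 to -0.39). In ILC or NK cells 1 of 21 early-response genes (Hes1, found in 10 and 20 cells, and no longer past the fold without mixed cells at 0.31) and 0 of 10 heat shock genes were higher, beside 4.66% of 3906 genes, and 0 were lower, beside 3.92%. In the Ccl1 cluster 0 of 21 and 1 of 10 (Hspb1, 32 and 133 UMIs) were higher, beside 4.66% of 4568 genes, and 0 were lower, beside 5.63%. In the Cd8b1 cluster, which had 433 and 285 cells, 0 of 21 and 0 of 11 were higher or lower, beside 3.64% and 2.4% of 6291 genes. The medians over early-response and heat shock genes were -0.05 and 0.17 in DCs, -0.09 and 0.12 in the H2-M5 cluster, 0.02 and -0.10 in ILC or NK cells, -0.15 and -0.03 in the Ccl1 cluster and -0.13 and -0.09 in the Cd8b1 cluster. Over all genes tested the medians lay between -0.02 and 0.07 in these groups.

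Hspb1 was the gene that passed the fold in most groups, being higher in macrophages, monocytes, DCs and the Ccl1 cluster and lower in T cells. In each it sat in few cells, and in DCs its ratio of 0.88 (0.51 to 1.25) was -0.21 without mixed cells. Hspa1a and Hspa1b, had macrophage ratios of -0.14 (-0.17 to -0.11) and 0.01 (-0.03 to 0.05), and Hspa8 one of -0.06 (-0.09 to -0.04). Fos was lower in 8 of 8 compared groups, which leave out B cells, neutrophils and epithelial tumor cells, without passing the fold in any. Its ratio was -0.30 (-0.33 to -0.26) in macrophages, -0.31 (-0.39 to -0.24) in monocytes and -0.07 (-0.16 to 0.01) in T cells.

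**Figure D5:**
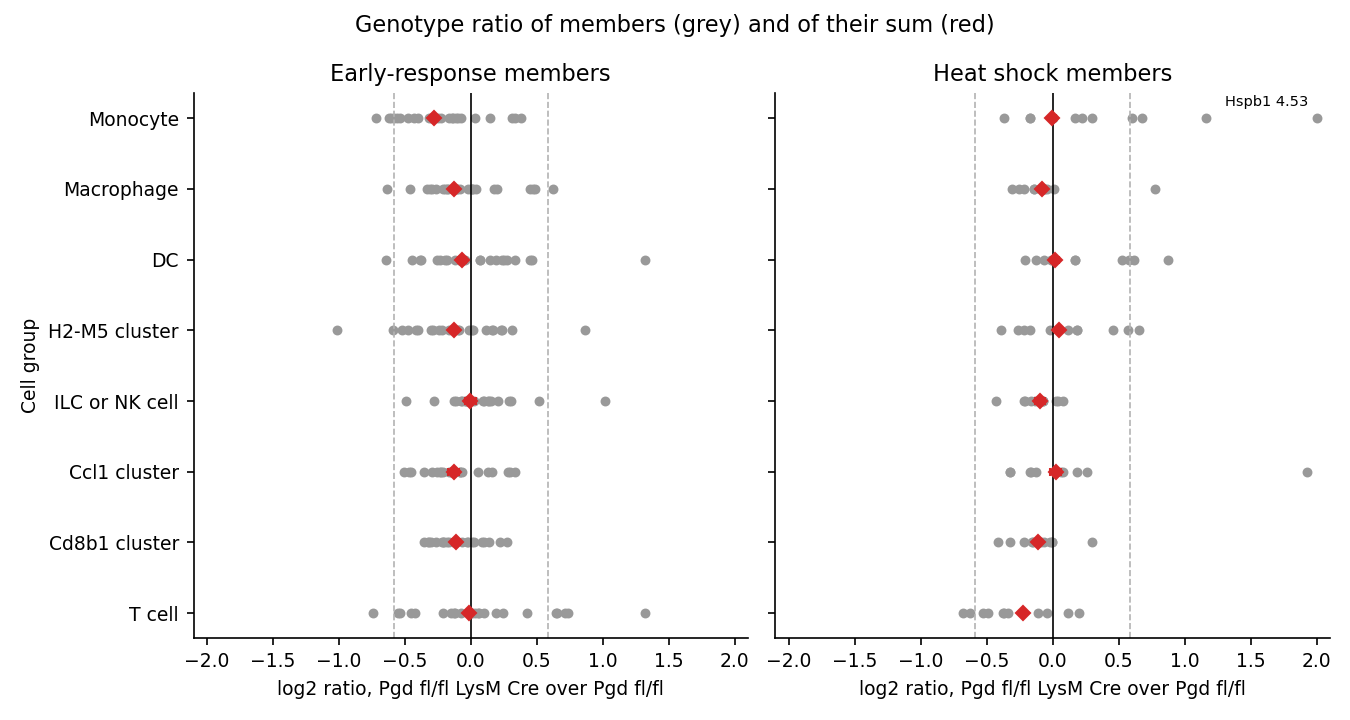
Ratio between genotypes on the log2 scale (x axis, positive where Pgd fl/fl LysM Cre was higher) for each gene with at least 50 UMIs (grey) and for the summed genes (red diamond) in 8 cell groups, with early-response genes on the left and heat shock genes on the right. Dashed lines mark the 1.5-fold limits, and the monocyte Hspb1 value of 4.53 is drawn at the edge of the axis. Most points lie between the dashed lines in every group.

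Among the wider lists, 3 of 34 further early-response genes were higher in macrophages (Dusp4, 0.77, Gem, 0.64, and Cebpd, 0.63) and 0 lower, beside the 5.29% and 2.91% of all genes. Of the NF-kB targets and cytokines Ccl3, a chemokine, was higher (613 and 921 CPM) and Cxcl1 lower (78.8 and 52.2 CPM), with Cxcl10 at 0.57. Of 34 cytosolic chaperones 0 passed in macrophages, the farthest being Hspa4l (0.51), Hsf2 (0.46) and Dnajb4 (-0.27). Herpud1, a gene of endoplasmic reticulum stress, was the 1 of 16 to pass, at 327 and 197 CPM, beside Sdf2l1 (-0.40) and Xbp1 (0.34). In T cells 4 of 33 early-response genes were higher (Dusp4, 0.80, Ier5l, 0.73, Bhlhe40, 0.72, and Nfil3), beside 9.22% of all genes. Of the T cell cytokine list Ccl3 was higher (0.86), with Nfkbie at 0.58 and Cxcl10 at 0.43. Among T cell chaperones Dnajb4 was lower (-1.02) and Hsf2 (0.61) and Sqstm1 (0.59) higher, and of 16 endoplasmic reticulum genes 0 passed (Hsp90b1 0.51, Xbp1 0.50, Pdia6 0.47).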

How the data were processed

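Single-cell RNA was measured in 1 library per genotype from pooled AT3 tumors. The authors deposited a matrix of UMI counts per gene and cell for each library, and the submitters' processing notes name Cell Ranger 6.1.2, Seurat and build mm10. Sample oligonucleotide features were left out. Total counts were 27245625 UMIs in 3728 barcodes of Pgd fl/fl and 28827045 in 3014 barcodes of Pgd fl/fl LysM Cre.

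From these deposited counts, cells under 500 or over 7500 genes or above 15% mitochondrial UMIs were left out, the limits given in the study's methods, which left more cells here than that study lists. Both libraries were clustered together in R 4.3.3 with Seurat 5.3.0, SeuratObject 5.2.0 and Matrix 1.6.5. The steps used 2000 variable genes (27 of the 35 genes were among them and were taken out), 30 principal components, 20 neighbours and Louvain resolution 0.8 with seed 1. A cluster was named when 3 or more markers of 1 list reached detection in 25% of its cells and no other list had more among its 10 leading genes. No doublet caller was run, and mixed cells were left out in an alternative instead.

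Counts were summed per cell group and library and divided by the group's total (CPM, or percent of UMIs), with exact Poisson or binomial intervals at 95%. Per-cell values came from cells thinned to 2000 UMIs, without shallower cells. Groups with at least 100 cells in each library were compared between genotypes. A gene was called higher or lower past 1.5-fold among genes with at least 50 UMIs over both libraries, and no test was run. All 35 genes are accounted for. Beyond them, the text names the 3 genes with the largest ratio from each wider list in macrophages and T cells, those of a wider list that passed the fold, and genes among the 10 most correlated with each sum, of which some are not reported here. The genes and lists were chosen with earlier results of these data known. Calculations used Python 3.11.15, numpy 2.4.6, scipy 1.17.1 and pandas 2.3.3, and the ratio, interval and thinning steps were tested on simulated data. Alternatives were other scaling, the mean over cells, thinning, other clusterings, stricter cell filters, other call limits, cells without markers of another class, and fixed cluster weights. Comparisons with 1 library per genotype cannot tell the genotype from the library or the pool of mice.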

Additional observations from a re-analysis of the deposited data

Results flagged for a closer look

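The ratio of Hspb1 between genotypes had opposite signs in different cell groups. Its ratio, on the log2 scale and above 0 where Pgd fl/fl LysM Cre was higher, was 4.53 in monocytes (5 and 343 UMIs) and -0.68 in T cells (656 and 289 UMIs). The difference between these ratios was not tested, since each genotype had 1 library. In monocytes 5 Pgd fl/fl LysM Cre cells held 210 of the 343 UMIs, and in T cells the 5 cells with the most held 143 of 289. Epithelial tumor cells, the group with the most Hspb1, were at 1056 and 1010.4 CPM, and 2 of the 5 monocytes and 0 of the 5 T cells of Pgd fl/fl LysM Cre held an epithelial marker UMI, as did 36.6% and 14.7% of all cells of these groups in that library. The part of such RNA in the ratios was not tested further.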

How the results depend on the processing

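Ratios are on the log2 scale, above 0 where Pgd fl/fl LysM Cre was higher. Counts of genes higher or lower are over the 35 genes at 1.5-fold unless another fold is named. Shares of all genes past the fold under these settings are not given, so the counts cannot be set against other genes. The causes of moves between settings were not tested. The summed early-response ratio kept its sign under every setting run in macrophages, monocytes, the H2-M5 cluster and the Cd8b1 cluster, and the summed heat shock ratio in macrophages and the Cd8b1 cluster. Of the alternative values, 78 of the sums, 114 of the counts, 185 of the single genes and 21 of the positions in the order of cell groups moved by less than counting error or 1.5 times in a count, and 49, 46, 36 and 3 moved by more. Of the shares of cells with a Hspa1a or Fos UMI, 15 stayed and 29 moved at 1000 in place of 2000 UMIs per cell. A sum changed sign beyond the counting interval 7 times and a single gene 2 times. Scaled to a total without mitochondrial, ribosomal protein and the 35 genes, the early-response ratio was -0.081 in macrophages and -0.16 in T cells, and the heat shock ratio was -0.14 in the Cd8b1 cluster, -0.040 in macrophages and -0.37 in T cells. Genes higher numbered 2 in T cells. Genes lower numbered 1 in the H2-M5 cluster and 8 in T cells. As the mean of each cell's CPM, the early-response ratio was -0.19 in the Ccl1 cluster, 0.0034 in DCs, 0.11 in ILC or NK cells, -0.14 in macrophages and -0.16 in monocytes, and the heat shock ratio was -0.027 in the Ccl1 cluster, 0.059 in DCs, 0.018 in the H2-M5 cluster, 0.12 in ILC or NK cells, -0.11 in macrophages, 0.039 in monocytes and -0.28 in T cells. Genes higher numbered 5 in DCs, 2 in ILC or NK cells and 1 in T cells. Genes lower numbered 3 in the Ccl1 cluster and 1 in monocytes. With cells thinned to 2000 UMIs, the early-response ratio was -0.25 in the Ccl1 cluster, 0.022 in DCs, 0.12 in ILC or NK cells, -0.16 in macrophages, -0.19 in monocytes and -0.062 in T cells, and the heat shock ratio was -0.085 in the Cd8b1 cluster, 0.020 in the H2-M5 cluster, 0.12 in ILC or NK cells, -0.11 in macrophages and -0.26 in T cells. Genes higher numbered 1 in the Cd8b1 cluster, 5 in DCs, 0 in macrophages and 0 in T cells. Genes lower numbered 3 in the Ccl1 cluster, 0 in macrophages and 1 in monocytes. The ratio of Hes1 turned to -0.047 in T cells. With the 35 genes kept in the clustering, the early-response ratio was 0.072 in the Ccl1 cluster, -0.15 in the Cd8b1 cluster and -0.22 in monocytes, and the heat shock ratio was -0.14 in the Ccl1 cluster, -0.18 in the Cd8b1 cluster, -0.14 in ILC or NK cells, -0.033 in monocytes and -0.18 in T cells. Genes higher numbered 1 in macrophages. Genes lower numbered 1 in ILC or NK cells and 0 in monocytes. With clusters at resolution 1.6, the early-response ratio was -0.088 in the H2-M5 cluster, -0.14 in macrophages and -0.21 in monocytes, and the heat shock ratio was -0.060 in the H2-M5 cluster, -0.050 in macrophages and -0.057 in monocytes. Genes higher numbered 1 in monocytes. Genes lower numbered 7 in monocytes, which were 26 and 51 cells there. With cells of at most 5% mitochondrial UMIs, the early-response ratio was -0.18 in the Ccl1 cluster and -0.10 in the H2-M5 cluster, and the heat shock ratio was 0.084 in the H2-M5 cluster. Genes higher numbered 1 in macrophages. Genes lower numbered 1 in the Ccl1 cluster and 1 in the H2-M5 cluster. Without mixed cells, the early-response ratio was -0.18 in the Ccl1 cluster, -0.033 in DCs, -0.083 in macrophages and -0.32 in monocytes, and the heat shock ratio was -0.10 in the Ccl1 cluster, 0.14 in the H2-M5 cluster, -0.056 in macrophages and -0.11 in monocytes. Genes higher numbered 5 in DCs, 5 in the H2-M5 cluster, 0 in ILC or NK cells, 4 in macrophages and 3 in T cells. Genes lower numbered 2 in DCs, 2 in macrophages and 5 in monocytes. The ratio of Hspb1 turned to -0.21 in DCs. With clusters at fixed weights, the early-response ratio was 0.12 in T cells, and the heat shock ratio was -0.069 in macrophages and 0.022 in T cells. With genes of at least 20 UMIs, genes higher numbered 2 in the Ccl1 cluster and 2 in ILC or NK cells, and genes lower numbered 1 in the Cd8b1 cluster, 2 in DCs and 1 in ILC or NK cells. Past 2-fold, genes higher numbered 1 in DCs, 0 in the H2-M5 cluster, 0 in macrophages, 2 in monocytes and 1 in T cells, and genes lower numbered 0 in DCs, 1 in the H2-M5 cluster, 0 in macrophages, 0 in monocytes and 0 in T cells. By position among 11 groups in Pgd fl/fl LysM Cre, T cells were at 10 for early-response genes by the mean of log2(CPM + 1) and at 9 with thinned cells, and B cells were at 2 for heat shock genes with thinned cells. The fixed weights, and mixed or thinned cells as settings for the positions, were added after seeing the data. No paired analysis was possible because each genotype had 1 library, and for the same reason no replicate could be left out. B cells, neutrophils and epithelial tumor cells, under 100 cells in a library, were left out of the compared groups. Ratios given for them and for clusters under 100 cells rest on few cells.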

Other observations

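A mast cell or basophil cluster, led by the protease genes Mcpt2, Mcpt1 and Cma1, held 16 cells in Pgd fl/fl LysM Cre and 0 in Pgd fl/fl. Its early-response genes held 1.15% (1.09 to 1.21) of UMIs, its heat shock genes 0.741% (0.692 to 0.792) and its AP-1 and EGR genes alone 0.865% (0.812 to 0.920), the parentheses giving 95% counting intervals.

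The DC clusters differed mainly in single genes. In the Fscn1 and Ccl22 cluster, whose leading genes are those of mature DCs, the early-response share was 1.05% and 0.942% and the heat shock share 0.935% and 0.958%. In the Xcr1 and Clec9a cluster of conventional type 1 DCs they were 1.18% and 1.21% and 1.10% and 1.10%. Hspb1 had opposite ratios in the clusters, at -2.09 (-2.85 to -1.38) with 61 and 23 UMIs in the Fscn1 cluster and 2.62 (1.99 to 3.33) with 22 and 226 UMIs in the Xcr1 cluster. In macrophages its ratio was 0.90 (0.74 to 1.06) in the Vcam1 cluster and -1.26 (-1.86 to -0.69) in the Ccl8 cluster.

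The cycling macrophages (53 and 53 cells) went against the macrophage ratio for inducible heat shock genes, which held 0.197% and 0.321% of their UMIs, against 0.401% and 0.372% over all macrophages. The Ccl8 macrophages went the other way in all heat shock genes, with 0.920% and 0.711%. Neither difference has a second library behind it.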
